A study of Mus musculus with 8 samples.

Results

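The 10 genes examined here were Foxd1, Foxc1, Foxc2, Tbx18 and Zic1, which encode transcription factors of the meninges and the mesenchyme that forms them, and Aldh1a1, Aldh1a2, Aldh1a3, Crabp2 and Rarb, which encode enzymes, a carrier and a receptor of retinoic acid. They were chosen by symbol with their S89G against WT differences in astrocytes and in neural stem cells (NSCs) already known, so those differences are given as a description without a test. All 10 symbols matched an Ensembl gene in both count tables, which together held 47859 genes. The samples were 8 RNA libraries: primary astrocytes (AST) from the cerebral cortex, with 1 WT and 1 S89G library, and NSCs grown as neurospheres from the subventricular zone, with 3 WT and 3 S89G libraries. S89G mice are knock-ins in which serine 89 of dentin matrix protein 1 (DMP1), the site that carries its glycosylation, was changed to glycine, and both copies of the gene carry the change. They were made by homologous recombination in C57BL/6J embryonic stem cells, and chimeric males were crossed with C57BL/6J females. The selection cassette was removed by a cross with FLP females, whose line name also holds another strain. WT controls were C57BL/6 mice, and the methods do not say whether they were littermates of the knock-ins. By the labels all samples came from animals aged 10 weeks, while the methods state the age of the donors of the astrocytes in months. Astrocytes were kept in medium with serum and recognised by GFAP staining, and NSCs were kept without serum and recognised by Sox2 and nestin staining. The sources do not say whether the triplicates came from separate mice or cultures, so the spread between NSC libraries may be technical.

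Retinoic acid is made from vitamin A. Retinol is oxidised to retinal, retinal is oxidised to retinoic acid by the dehydrogenases of the Aldh1a family, and retinoic acid is carried into the nucleus by Crabp2, binds RAR and RXR receptors on DNA and is removed by Cyp26 enzymes. In the brain the meninges are a known source of retinoic acid, and Aldh1a2 is their best known dehydrogenase. Foxc1, Foxc2, Foxd1, Tbx18 and Zic1 are active in meningeal mesenchyme, in pericytes or in the skull base, and mouse mutants of Foxc1 have defective meninges and cortical layering. Zic1 is also made by neural cells.

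Promoter windows of 7 of the 10 genes were matched in RefSeq sequence of the GRCm38.p6 build, and Aldh1a1 had a pair of windows, so that 8 windows were read over the 250 bases before the start site. Those of Foxc2, Aldh1a3 and Crabp2 were not matched. Motifs were searched on both strands. A retinoic acid response element of the DR5 kind was spelled as a tandem pair of hexamers with 5 bases between them, each hexamer being AGGTCA or AGTTCA, or the form of either that opens with G in place of A. Rarb was the only gene of the 7 with a DR5, which lay 53 to 37 bases before the start site, and it is shown because Rarb is the textbook target of retinoic acid. Across all 32851 promoter windows, 29 (0.0883%) held a DR5. The windows of Aldh1a2, Foxd1 and Zic1 are shown because Aldh1a2 and Foxd1 had the lowest S89G to WT ratios in astrocytes and Zic1 had the highest counts of the 10 genes in S89G-NSC. Capitals mark the DR5 in Rarb and the CCAAT boxes in the other windows. The windows lie at chr14:16575477-16575726 on the minus strand (Rarb), chr9:71215539-71215788 on the plus strand (Aldh1a2), chr13:98353995-98354244 on the plus strand (Foxd1) and chr9:91365769-91366018 on the minus strand (Zic1).
Rarb: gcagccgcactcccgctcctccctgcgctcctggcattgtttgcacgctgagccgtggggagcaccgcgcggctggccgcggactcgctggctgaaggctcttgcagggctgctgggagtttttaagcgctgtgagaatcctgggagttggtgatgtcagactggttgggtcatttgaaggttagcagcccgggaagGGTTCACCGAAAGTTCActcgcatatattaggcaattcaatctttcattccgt
Aldh1a2: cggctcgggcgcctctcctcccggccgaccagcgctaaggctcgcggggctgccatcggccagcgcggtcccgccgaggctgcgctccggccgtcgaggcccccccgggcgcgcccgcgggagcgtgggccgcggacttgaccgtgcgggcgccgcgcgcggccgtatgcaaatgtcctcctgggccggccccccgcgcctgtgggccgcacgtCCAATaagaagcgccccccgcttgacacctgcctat
Foxd1: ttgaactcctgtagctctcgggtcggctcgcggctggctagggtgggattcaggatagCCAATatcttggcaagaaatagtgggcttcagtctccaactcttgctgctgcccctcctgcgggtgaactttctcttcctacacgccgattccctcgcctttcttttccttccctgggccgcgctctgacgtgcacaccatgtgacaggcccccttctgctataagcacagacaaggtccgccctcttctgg
Zic1: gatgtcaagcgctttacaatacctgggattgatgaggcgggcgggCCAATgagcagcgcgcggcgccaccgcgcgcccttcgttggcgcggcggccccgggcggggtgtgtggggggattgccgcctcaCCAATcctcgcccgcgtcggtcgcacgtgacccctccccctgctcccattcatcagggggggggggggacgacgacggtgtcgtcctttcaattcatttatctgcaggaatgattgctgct

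A CCAAT motif was found in 6 of the 8 windows, against 33.8% of all windows, and GGGCGG was found in 3 of the 8, against 32.7%. No window held TATAAA (12.4% of all windows), the forkhead motif GTAAACA (3.17%), or the same hexamers 2 bases apart (DR2, 0.174%) or 1 base apart (DR1, 0.164%). The Aldh1a2 window was 77.6% G and C, above 97.6% of all windows, and that of Foxc1 was 70.8%, against a median of 52.4%. Both Aldh1a1 windows, at 42.8% and 46.4%, lay below that median. The genes that were lower in S89G-AST had promoter windows on both sides of the median base composition.

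Before the genes are described, the labels of the libraries were set beside marker lists. WT-AST held 14008670 counts and S89G-AST 13016924, and the NSC libraries held 2354615 to 2588130. In WT-AST the summed level of 15 astrocyte markers was 585 CPM (CPM is the count scaled to a fixed library total, here by the trimmed mean of M-values, TMM), with none at 0 but with Aqp4 at 8 counts, Slc1a3 at 8 and Mlc1 at 2. In S89G-AST the sum was 2050 CPM, with Gjb6 at 0 and with Aqp4 at 4051 counts, Slc1a3 at 3877 and Mlc1 at 2399. Gfap, the stain used to recognise astrocytes, had 90 counts in WT-AST and 901 in S89G-AST. Aqp4, Slc1a3 and Mlc1 were thus near 0 in the library labelled WT astrocytes. The NSC libraries held 747 to 890 counts of Sox2 and 4572 to 5460 of Nes, the NSC stains. The Xist and Y-linked gene counts also differed between the AST libraries: Xist had 12172 counts in WT-AST and 74 in S89G-AST, and Ddx3y had 0 and 1277, so genotype and the sex of the cultured cells cannot be told apart there. All 6 NSC libraries held both, with 2718 to 3001 counts of Xist. Dmp1, the changed gene, had 18, 21 and 16 counts in WT-NSC and 6, 3 and 5 in S89G-NSC (log2 fold change -1.90, SE 0.38, Benjamini-Hochberg adjusted p = 1.3e-04 in edgeR's quasi-likelihood fit), and 2 counts in WT-AST against 119 in S89G-AST.

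**Figure D1:**
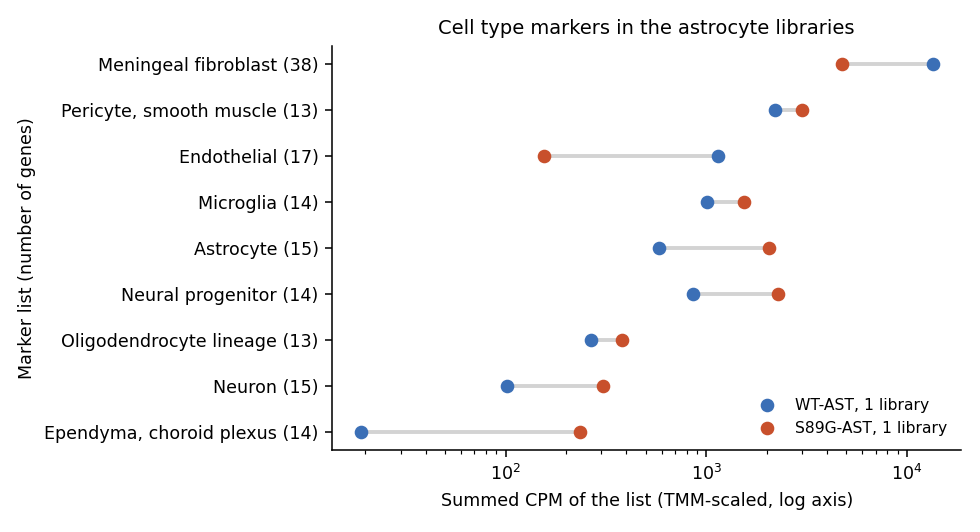
Summed TMM-scaled CPM (x axis, log scale) of 9 marker lists (y axis, number of genes in parentheses) in the WT-AST library (blue) and the S89G-AST library (orange), 1 point per library. Meningeal fibroblast and endothelial markers lay higher in WT-AST, at 13414 against 4730 CPM and 1143 against 155 CPM, and the other lists lay higher in S89G-AST.

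In the astrocyte cultures 9 of the 10 genes were lower in S89G-AST than in WT-AST by 2-fold or more, and 1, Aldh1a3, was higher by that much. Across the 15680 genes that reached 10 counts in WT-AST or S89G-AST, 30.1% passed 2-fold in either direction, 12.8% downwards and 17.3% upwards. A ratio of at least 4-fold downwards was found for 7 of the 10, against 5.18% of all genes. These shares stand beside a choice made on the same ratios. Summed over the 10 genes, the level was 1697 CPM in WT-AST and 202 CPM in S89G-AST. There was 1 library per genotype, so that the intervals below cover counting error only (95%, exact), and in bulk RNA fewer cells of a type and less RNA per cell cannot be told apart.

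**Figure D2:**
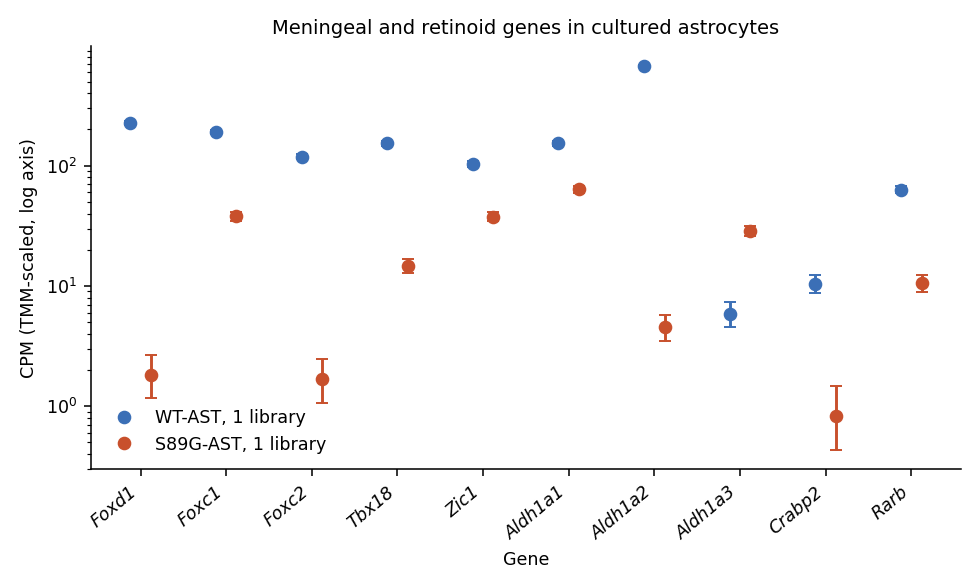
TMM-scaled CPM (y axis, log scale) of the 10 genes (x axis) in WT-AST (blue) and S89G-AST (orange), 1 library each, with bars for the 95% counting interval. Foxd1, Foxc2 and Aldh1a2 lay between 119 and 671 CPM in WT-AST and between 1.67 and 4.51 CPM in S89G-AST, and Aldh1a3 lay higher in S89G-AST.

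Among the transcription factors, Foxd1, a forkhead factor of stromal and meningeal progenitors, had 2878 counts (227 CPM) in WT-AST and 26 counts (1.81 CPM) in S89G-AST. It was 116-fold lower, with a log2 ratio of -6.86 (interval -7.59 to -6.42). Foxc2, a forkhead factor of mesenchyme and lymphatic vessels, had 1504 counts (119 CPM) and 24 counts (1.67 CPM). That was 65.5-fold lower (log2 ratio -6.03, interval -6.80 to -5.58), so that both genes were low in S89G-AST but above the limit of 3 counts (0.208 CPM).

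Tbx18, a T-box factor that marks pericytes and meningeal mesenchyme, had 1950 counts (154 CPM) in WT-AST and 210 (14.6 CPM) in S89G-AST, a log2 ratio of -3.39 (-3.61 to -3.19). Foxc1, the close relative of Foxc2, had 2411 counts (190 CPM) and 545 (37.8 CPM), a log2 ratio of -2.33 (-2.47 to -2.20). Zic1, a zinc finger factor shared by meninges and dorsal neural tissue, had 1310 counts (103 CPM) and 540 (37.5 CPM), a log2 ratio of -1.46 (-1.61 to -1.32). All 5 factors were lower in S89G-AST, and their intervals ran from the shallow ratio of Zic1 to the steep ratio of Foxd1. The paralogs Foxc1 and Foxc2 did not share a ratio, 5.01-fold and 65.5-fold lower, and at most 0.149% of their 50-base stretches were common to both, so few reads could be assigned to the wrong one.

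Of the dehydrogenases, Aldh1a2, the meningeal enzyme, had 8497 counts (671 CPM) in WT-AST and 65 counts (4.51 CPM) in S89G-AST. It had the lowest ratio of the 10 genes, 144-fold lower (log2 ratio -7.17, interval -7.59 to -6.86). Aldh1a1, which makes retinoic acid in several adult tissues and in dopamine neurons, had 1940 counts (153 CPM) and 919 (63.8 CPM), a log2 ratio of -1.26 (-1.38 to -1.15). With scaling by library size alone the Aldh1a1 ratio was -0.97, short of 2-fold. Aldh1a3, the enzyme of the ventral retina and olfactory region, went the other way, with 74 counts (5.84 CPM) in WT-AST and 411 (28.5 CPM) in S89G-AST, 4.79-fold higher (log2 ratio 2.26, interval 1.93 to 2.67).

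The 3 enzymes together reached 339 FPKM (the authors' level per gene length and library size) in WT-AST and 58 FPKM in S89G-AST. In WT-AST Aldh1a2 gave 79% of that sum, Aldh1a1 19.9% and Aldh1a3 1.06%. In S89G-AST Aldh1a2 was last, with Aldh1a1 at 59.3%, Aldh1a3 at 36.9% and Aldh1a2 at 3.8%. In the NSCs, counts were set on the same scale with the gene length that the FPKM values imply. Aldh1a3 then gave 93.2% ± 3.98 (SD, n = 3) of the sum in WT-NSC and 77.7% ± 4.93 in S89G-NSC, with Aldh1a1 as the rest and Aldh1a2 at 0. The Aldh1a1 share was 2.23% to 9.15% in WT-NSC and 16.6% to 25.2% in S89G-NSC, without overlap. It rests on few counts of Aldh1a1, 11, 8 and 2 in WT-NSC and 10, 14 and 16 in S89G-NSC. The groups overlapped in the level of Aldh1a1 itself, and its share also depends on Aldh1a3, which was lower in S89G-NSC.

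**Figure D3:**
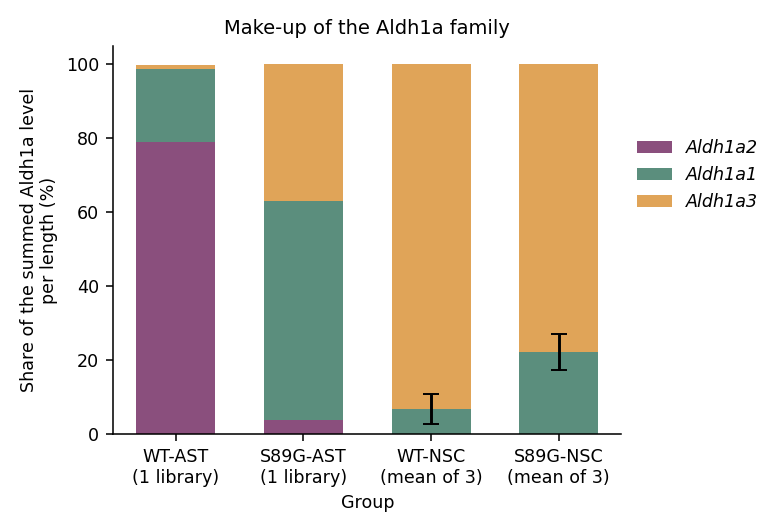
Share (y axis, %) of each Aldh1a gene in the sum of the 3 levels per length, by group (x axis), for 1 AST library per genotype and for the mean of 3 NSC libraries per genotype, with bars for the SD of the Aldh1a1 share. Aldh1a2 fills 79% of the WT-AST bar and is absent from the NSC bars, where Aldh1a3 is the larger part.

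Crabp2, which hands retinoic acid to its receptors, had 132 counts (10.4 CPM) in WT-AST and 12 counts (0.833 CPM) in S89G-AST, a log2 ratio of -3.43 (-4.63 to -2.79). Rarb, the receptor whose promoter holds the DR5 shown above, had 800 counts (63.2 CPM) and 151 counts (10.5 CPM), a log2 ratio of -2.57 (-2.85 to -2.34). Exons of Rarb overlap those of Top2b on the opposite strand over 34.1% of their bases. Whether the counting used strand is not given in the sources used here, so reads from that stretch cannot be told apart. Top2b itself had a log2 ratio of 0.23 in the astrocytes, opposite in sign to that of Rarb. For Tbx18, 20.6% of the exon bases are shared with D030062O11Rik on the opposite strand, which had 38 counts in WT-AST and 6 in S89G-AST.

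Per length, the order of levels in WT-AST was Aldh1a2 (268 FPKM), Foxd1 (83.4), Aldh1a1 (67.5), Tbx18 (54.6), Foxc1 (43.5), Foxc2 (39.4), Zic1 (31.8), Rarb (18.8), Crabp2 (11.9) and Aldh1a3 (3.59). No neighbours in that order had overlapping counting intervals. In S89G-AST the order was Aldh1a1 (34.4 FPKM), Aldh1a3 (21.4), Zic1 (14.1), Foxc1 (10.6), Tbx18 (6.32), Rarb (3.82), Aldh1a2 (2.21), Crabp2 (1.16), Foxd1 (0.811) and Foxc2 (0.677), and the intervals of the last 4 overlapped from each to the next. Aldh1a3 thus went from the last place to the second and Foxd1 from the second to the ninth.

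The marker lists moved beside these genes in the same pair of libraries. The 38 meningeal fibroblast and arachnoid markers summed to 13414 CPM in WT-AST, with Slc47a1, Slc22a6, Cldn11 and Bmp5 at 0, and to 4730 CPM in S89G-AST, with Slc6a13, Slc22a6, Slc22a8, Gjb6 and Bmp5 at 0. Of the 30 that were counted, 18 were lower by 2-fold or more and 5 higher (median log2 ratio -1.94, against 0.01 over all genes). The 17 endothelial markers summed to 1143 and 155 CPM, with Cldn5 and Sox17 at 0 in both libraries and Tie1 also at 0 in S89G-AST. Most of that difference in sum was Eng (929 and 10.9 CPM) and Cdh5 (151 and 1.6 CPM), and of the 14 counted 6 were lower and 4 higher by 2-fold or more (median log2 ratio -0.03). The 14 neural progenitor markers summed to 858 CPM in WT-AST, with Sox1 and Hes5 among those at 0, and to 2270 CPM in S89G-AST, with Hes5 at 0. The 13 pericyte and smooth muscle markers, of cells that also make Tbx18 and Foxc1, were not lower in sum, at 2190 CPM in WT-AST and 3005 CPM in S89G-AST, with Kcnj8 and Higd1b at 0 in both, although of the 11 counted 5 were lower and 2 higher by 2-fold or more (median log2 ratio -0.41). The part of these cell types in the ratios of the 10 genes was not tested.

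In the NSCs, Foxd1, Foxc2, Tbx18 and Aldh1a2 had 0 counts in all 6 libraries, where a count of 0 allows a level of up to 1.17 to 1.28 CPM (3 counts). Aldh1a2, Foxd1 and Foxc2, which had the lowest astrocyte ratios of the 10, were thus not detectable in NSCs at this depth. Of the remaining 6 genes, 4 passed the filter on low counts (4.08 CPM in at least 3 libraries), and 2 of these, Zic1 and Aldh1a3, were past the threshold of edgeR's quasi-likelihood test, which 15.8% of the 11194 genes tested passed. In the same 2 genes the groups did not overlap in CPM, as for 30.7% of all tested genes.

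**Figure D4:**
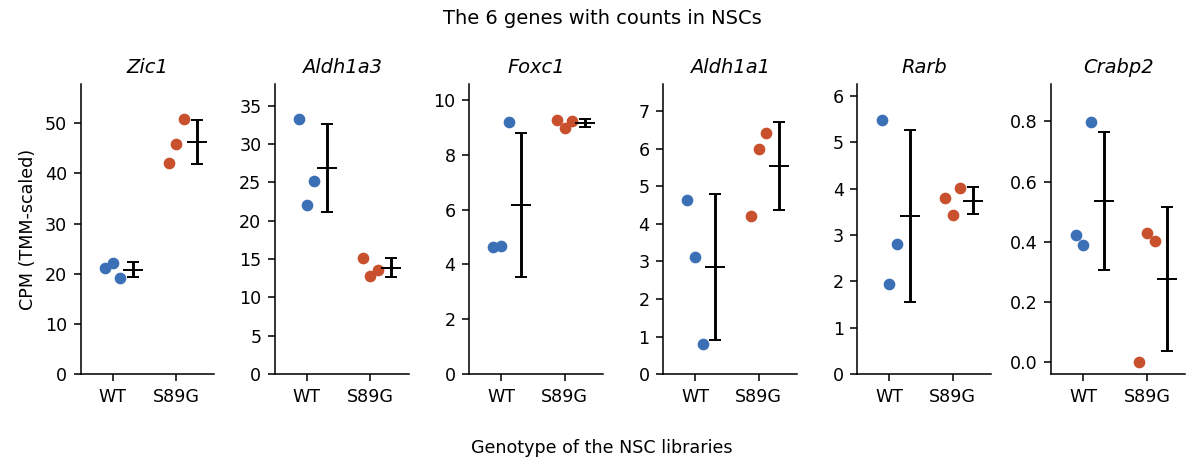
TMM-scaled CPM (y axis, own scale per gene) of the 6 genes with counts in NSCs, by genotype (x axis), with 3 libraries per genotype as points and black bars for the mean ± SD. For Zic1 the S89G points lie above all WT points and for Aldh1a3 below them, and in the other 4 genes the groups overlap.

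Zic1 had 50, 57 and 48 counts in WT-NSC (21.1, 22.1 and 19.2 CPM) and 100, 107 and 127 counts in S89G-NSC (42.1, 45.8 and 50.9 CPM). In CPM every S89G library lay above every WT library. The authors' TPM values of Zic1 were 10.6, 10.6 and 10.7 in WT-NSC and 20, 22.5 and 10.2 in S89G-NSC. On that scale S89G-NSC 3 lay below the WT libraries. The means were 20.8 ± 1.51 and 46.3 ± 4.43 CPM (SD, n = 3), a log2 fold change of 1.15 (SE 0.14) or 2.23-fold. Exons of Zic1 share 60 bases (1.05%) with its neighbour Zic4 on the opposite strand. Zic4 had 1, 6 and 4 counts in WT-NSC and 10, 10 and 7 in S89G-NSC, higher in S89G-NSC like Zic1, but did not pass the filter.

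Aldh1a3 had 79, 57 and 63 counts in WT-NSC (33.3, 22.1 and 25.2 CPM) and 36, 30 and 34 counts in S89G-NSC (15.2, 12.8 and 13.6 CPM). Every S89G library lay below every WT library, and the WT libraries were the more spread. The means were 26.9 ± 5.77 and 13.9 ± 1.18 CPM (SD, n = 3), a log2 fold change of -0.94 (SE 0.18) or 1.92-fold lower. Zic1 and Aldh1a3 therefore differed in opposite directions in the NSCs, and each in the direction opposite to its own in the astrocytes. Among the 1733 genes that were past the threshold in NSCs and counted in astrocytes, 272 (15.7%) were at least 2-fold the other way in astrocytes.

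Foxc1 had 11, 12 and 23 counts in WT-NSC (4.64, 4.66 and 9.19 CPM) and 22, 21 and 23 in S89G-NSC (9.27, 8.99 and 9.23 CPM). WT-NSC 3 lay among the S89G libraries, and the log2 fold change was 0.57 (SE 0.28). The authors' TPM values listed Foxc1 at 0 in S89G-NSC 1 and WT-NSC 2, which had 22 and 12 counts, and the counts were therefore used. Aldh1a1 had 11, 8 and 2 counts in WT-NSC (4.64, 3.11 and 0.799 CPM) and 10, 14 and 16 in S89G-NSC (4.21, 5.99 and 6.42 CPM). It passed the filter in 3 S89G libraries and 1 WT library, its groups overlapped, and the log2 fold change was 0.97 (SE 0.39).

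Rarb had 13, 5 and 7 counts in WT-NSC (5.48, 1.94 and 2.8 CPM) and 9, 8 and 10 in S89G-NSC (3.79, 3.42 and 4.01 CPM), with the S89G libraries inside the range of the WT libraries. Crabp2 had 1, 1 and 2 counts in WT-NSC and 0, 1 and 1 in S89G-NSC, at or under the limit of 3 counts. The antisense neighbour of Rarb, Top2b, had a mean of 336 CPM in WT-NSC and 378 CPM in S89G-NSC (log2 fold change 0.17, SE 0.06, adjusted p = 0.047 by edgeR). That call was lost without any of S89G-NSC 1, S89G-NSC 2, WT-NSC 2 or WT-NSC 3, with adjusted p up to 0.35 and log2 fold changes of 0.10 to 0.16. Summed over the 5 transcription factors, WT-NSC held 25.7 to 28.4 CPM and S89G-NSC 51.4 to 60.2 CPM, and most of that sum was Zic1. The 3 dehydrogenases summed to 25.3 to 37.9 CPM in WT-NSC and 18.8 to 20.1 CPM in S89G-NSC.

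Marker lists in the NSCs were also set beside these values. Of the 38 meningeal fibroblast markers, 18 had 0 counts in all 6 libraries, among them Col1a2, Lum and Dcn, and the list summed to 196 to 206 CPM in WT-NSC and 197 to 228 CPM in S89G-NSC. The 15 astrocyte markers summed to 2165 to 2220 CPM in WT-NSC and 2904 to 2990 CPM in S89G-NSC, with Gjb6 at 0 throughout, so that they lay higher in S89G-NSC like Zic1, and their part in its difference was not tested. The 14 neural progenitor markers also lay higher, at 3683 to 3923 and 4062 to 4133 CPM. Lower in S89G-NSC, like Aldh1a3, were the 13 pericyte and smooth muscle markers (249 to 263 and 163 to 200 CPM). So were the 14 microglia markers (138 to 155 and 102 to 110 CPM). Most genes of these lower lists had at most 3 counts in every library, and their part was not tested. The sums of the other lists overlapped. Set side by side per length, with each table scaled by itself, Zic1 was at 7.04 ± 0.513 on the FPKM scale (SD, n = 3) in WT-NSC and 15.6 ± 1.5 in S89G-NSC, and at 31.8 and 14.1 FPKM in WT-AST and S89G-AST. Aldh1a3 was at 18.1 ± 3.9 and 9.35 ± 0.795 in the NSCs and at 3.59 and 21.4 FPKM in the astrocytes. In the WT libraries Zic1 was thus higher in the astrocyte culture and Aldh1a3 higher in the NSCs, and cell type, medium and the normalisation of the tables cannot be told apart in these levels.

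The other genes of the retinoid pathway, 54 in 4 lists by role, were compared with the 10. In the NSCs 26 were tested, and 2 rose and 1 fell, against 7.08% and 8.76% of all genes tested. In the astrocytes 37 were counted, of which 4 were higher and 7 lower by 2-fold or more. The median log2 ratio of the list was -0.19, and 0.10 with scaling by library size alone, which moved the median of all genes from 0.01 to 0.30. The pathway median lay below that of all genes under both scalings, and the median of the 10 genes was -2.98.

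**Figure D5:**
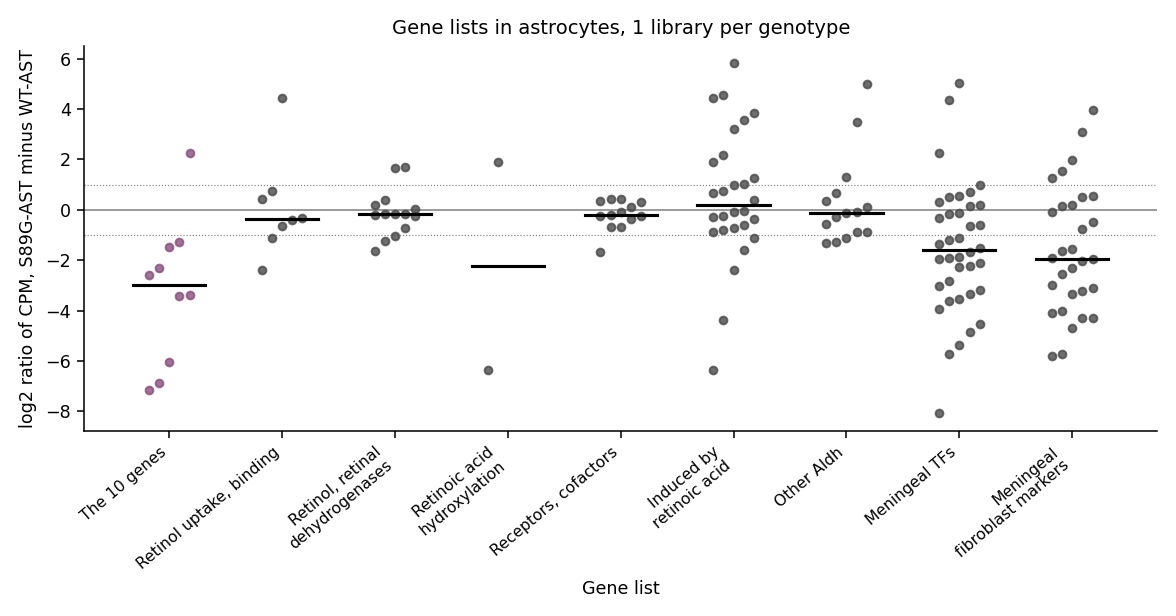
Log2 ratio of TMM-scaled CPM, S89G-AST minus WT-AST (y axis), of each gene that reached 10 counts in either, for the 10 genes (purple) and 8 gene lists (grey, x axis), with bars for medians and dotted lines at 2-fold. The retinoid lists with 8 or more counted genes have medians from -0.36 to 0.19, and those of the meningeal transcription factors and fibroblast markers are -1.59 and -1.94.

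In the list of retinol uptake, storage and binding, 8 of 14 genes were counted in astrocytes. Stra6, the retinol transporter, had 29 counts in WT-AST and 14 in S89G-AST (log2 ratio -1.12). Crabp1, the sister of Crabp2, had 4 counts in WT-AST and 144 in S89G-AST (log2 ratio 4.45), so that the paralogs had opposite ratios. In the NSCs Fabp5, which carries fatty acids and retinoic acid, rose with a log2 fold change of 0.21 (SE 0.06, edgeR adjusted p = 0.013), and Dgat1, which can esterify retinol, fell by 0.57 (SE 0.13, edgeR adjusted p = 9.9e-04). Without S89G-NSC 3, WT-NSC 1 or WT-NSC 3 the call of Fabp5 was lost, with adjusted p up to 0.11 and log2 fold changes of 0.15 to 0.17, and DESeq2 did not call it (adjusted p = 0.1).

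Of the retinol and retinal dehydrogenases and reductases, 14 of 22 were counted in astrocytes, of which 2 were higher and 3 lower by 2-fold or more. Rdh10, the main retinol dehydrogenase of the embryo, had 1291 counts in WT-AST and 1317 in S89G-AST, and Dhrs3, which turns retinal back to retinol, had 668 and 1002. In the NSCs 9 were tested and Rdh14, an enzyme of the retinol dehydrogenase family, rose from 10.9 to 34.7 CPM (log2 fold change 1.67, SE 0.17, edgeR adjusted p = 3.4e-12), and no other was called. Rdh14 had 177 counts in WT-AST and 180 in S89G-AST.

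Among the enzymes that hydroxylate retinoic acid, Cyp26b1 had 25427 counts (2008 CPM) in WT-AST and 346 counts (24 CPM) in S89G-AST, a log2 ratio of -6.38, beside -6.86 for Foxd1 and -7.17 for Aldh1a2. Cyp26a1 and Cyp26c1 had at most 4 counts in either library. No gene of this list passed the filter in the NSCs. Of the receptors and their cofactors 13 of 14 were counted, and 1 was past 2-fold (7.69%, against 30.1% of all genes). That gene was Rxra, the common partner of the RARs, with 207 and 64.8 CPM (log2 ratio -1.67). Rara and Rarg, the sisters of Rarb, had log2 ratios of -0.36 and -0.68, against -2.57 for Rarb. In the NSCs edgeR and DESeq2 each called 0 of 13 tested receptor genes, with 1 at an unadjusted p under 0.05 in edgeR, and Rxra had a log2 fold change of -0.34 (edgeR adjusted p = 0.054).

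Genes commonly induced by retinoic acid lay on both sides in the astrocytes, where 10 of 28 counted were higher by 2-fold or more and 5 lower (median log2 ratio 0.19). The lower ones included Lefty1 (165 and 7 counts) and Pdk4 (595 and 224) beside Cyp26b1. The higher ones included Hoxa2 (1 and 181 counts) and Hoxa5 (5 and 109), Hox genes that mark positions behind the forebrain, and the Hox cofactor Meis1 (42 and 1155). In the NSCs 10 were tested and 1, Egr1, fell by 0.18 (SE 0.06, edgeR adjusted p = 0.027), a call that was lost without S89G-NSC 2, S89G-NSC 3 or WT-NSC 3 with adjusted p up to 0.14. Among the other aldehyde dehydrogenases, 12 of 17 were tested in NSCs and 1, Aldh1l1, the folate enzyme used as an astrocyte marker, rose from 307 to 629 CPM (log2 fold change 1.03, SE 0.05, edgeR adjusted p = 5.8e-25). In the astrocytes Aldh1l1 had 47 and 1792 counts (log2 ratio 5.01), and Aldh2 and Aldh3a2 had log2 ratios of -1.29 and -1.13.

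Of 43 other transcription factors of meningeal and cranial mesenchyme, 38 were counted in the astrocytes, and 23 were lower and 3 higher by 2-fold or more (median log2 ratio -1.59, against 0.01 over all genes). The lower ones included Foxf2 (1579 counts in WT-AST and 42 in S89G-AST, log2 ratio -5.35), Foxl1 (189 and 2 counts) and Eya2 (1816 and 70 counts, -4.84). The higher ones included Lmx1b (19 and 773 counts, 5.03) and Ebf3 (6 and 41 counts, 2.27). In the NSCs 7 were tested, 0 rose in either edgeR or DESeq2 (2 at an unadjusted p under 0.05 in edgeR), and Ebf3 and Prrx1 fell by 1.05 (SE 0.24, edgeR adjusted p = 8.4e-04) and 0.34 (SE 0.11, edgeR adjusted p = 0.026). The call of Prrx1 was lost without S89G-NSC 1, S89G-NSC 2 or WT-NSC 3, with adjusted p up to 0.15. Of the Zic family, Zic2 and Zic5 had log2 fold changes of 0.40 (edgeR adjusted p = 0.074) and 0.62 (edgeR adjusted p = 0.066), not past the threshold.

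Meningeal fibroblast markers in the NSCs gave 6 tested genes, of which 2 rose and 2 fell, against 7.08% and 8.76% of all genes tested. Pdgfra, the fibroblast and oligodendrocyte precursor receptor, fell by 0.84 (SE 0.22, edgeR adjusted p = 0.004) and Cemip, a hyaluronan-degrading protein, by 1.23 (SE 0.20, edgeR adjusted p = 4.2e-06). Bmp7 rose by 0.29 (SE 0.08, edgeR adjusted p = 0.0077) and Alpl by 0.51 (SE 0.18, edgeR adjusted p = 0.045). The call of Bmp7 was lost without S89G-NSC 1 (adjusted p up to 0.066), and that of Alpl without any NSC library but S89G-NSC 3 (adjusted p up to 0.16). All 4 were lower by 2-fold or more in S89G-AST, with log2 ratios of -4.29, -3.22, -4.31 and -1.55. So were 18 of the 30 counted genes of this list and 12.8% of all genes.

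The nearest protein-coding gene on each side of the 10 genes was also read. Foxf2, 175 kb from Foxc1, and Foxl1, 9.04 kb from Foxc2, were forkhead genes with the ratio and counts given above, and on the other side Gmds and Mthfsd had log2 ratios of -0.44 and 0.16. Beside Aldh1a2, Aqp9 had 1 and 12 counts and Polr2m a log2 ratio of -0.95. Aldh1a7, a close copy 49.5 kb from Aldh1a1 that shares 3.06% of its 50-base stretches, had 4 counts in WT-AST and 73 in S89G-AST (log2 ratio 3.49). Those counts are small beside the 1940 and 919 of Aldh1a1, and reads of the shared stretches are uncertain. Anxa1, on the other side of Aldh1a1, had 6610 and 2536 counts (log2 ratio -1.57). Gm10320 beside Foxd1 had 64 and 0 counts, and Thrb beside Rarb 336 and 165 (log2 ratio -1.20). The neighbours without astrocyte values here were short of 2-fold or had at most 1 count. In the NSCs Lrrk1, 2.54 kb from Aldh1a3, had a log2 fold change of -0.54 (SE 0.20, edgeR adjusted p = 0.048), and Mthfsd, 7.78 kb from Foxc2, one of -0.43 (SE 0.14, edgeR adjusted p = 0.022). The call of Lrrk1 was lost without any NSC library but WT-NSC 1 (adjusted p up to 0.22), and that of Mthfsd without S89G-NSC 1, S89G-NSC 2, WT-NSC 2 or WT-NSC 3 (adjusted p up to 0.14). None of the other neighbours tested in the NSCs was called.

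Likeness of pattern was measured as the distance of TMM-scaled log2 CPM over the 8 libraries. The genes nearest to Aldh1a2 were Dkk2 (distance 1.21, 3752 counts in WT-AST and 82 in S89G-AST), Xdh (1.26, 3812 and 77 counts) and Serpinb9b (1.46, 5041 and 174 counts). Dkk2 encodes a secreted Wnt regulator and Xdh xanthine dehydrogenase. Those nearest to Zic1 included Plekha3 (distance 1.22) and Bscl2 (1.24), at 1033 and 643 and at 980 and 487 counts in WT-AST and S89G-AST. Aldh1a2 and Dkk2 both had 0 counts in all 6 NSC libraries.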

How the data were processed

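Total RNA from 2 astrocyte libraries and 6 NSC libraries was sequenced. Per the methods the authors removed adapter and low-quality reads and aligned read pairs with TopHat2 2.0.9 on a Bowtie2 2.0.6 index. The counting program, genome build and annotation are not given in the sources used here. The authors deposited raw counts and FPKM per gene for the astrocytes, and raw counts and TPM per gene for the NSCs. Some well counted genes are listed at 0 in the deposited TPM, so counts were used for all main values and FPKM for levels per length.

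Of the NSC counts, 11194 genes passed filterByExpr and were TMM-scaled and fitted together with edgeR 4.0.16 (R 4.3.3) by the quasi-likelihood test on genotype. A gene was called where its Benjamini-Hochberg adjusted p was under 0.05. Astrocyte log2 ratios were taken between TMM-scaled CPM values, adding a prior count of 2, in genes that reached 10 counts in WT-AST or S89G-AST, and were not tested. Counting intervals are exact at 95% and, like the limit of 3 counts, cover counting error only. NSC alternatives were DESeq2 1.42.0, limma 3.58.1 on log2(TPM + 1), RLE factors or none beyond library size, a stricter filter (10 counts in every library) or none, a replicate block and each library left out. Astrocyte alternatives were scaling by library size alone, a prior count of 0.5, a minimum of 50 counts or no minimum, and log2(FPKM + 1) and log2(FPKM + 0.1). The NSC script was tested on simulated data. The chi-square per gene was 1.07 to 1.51 between replicate libraries, where counting noise alone gives about 1. Between genotypes it was 3.17 to 4.06. These values do not show whether the replicates were separate mice or cultures.

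Symbols were matched to 39973 astrocyte and 47224 NSC identifiers. Neighbouring genes and exon overlaps come from a GENCODE annotation of GRCm38, used for order and overlap only. The 10 genes and the gene lists were chosen with earlier results of these data known. Beyond the 10, genes are named if past the NSC threshold (up to 5 per list), among the largest astrocyte ratios of a list (up to 4 each way), next to 1 of the 10 on the chromosome or nearest to it in pattern, or as library checks, and some genes that met this rule are not reported here. Rdh10, Dhrs3, the Cyp26, Rar and Zic relatives, Top2b and D030062O11Rik were named as paralogs, overlapping genes or steps of the pathway after their values were seen.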

Additional observations from a re-analysis of the deposited data

Results flagged for a closer look

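Zic1 and Aldh1a3, past the NSC threshold, stood out because S89G and WT differed in opposite directions in the NSC and AST libraries. The log2 fold change of Zic1 was 1.15 in the NSCs and its log2 ratio was -1.46 in the astrocytes. For Aldh1a3 the values were -0.94 and 2.26. Foxc1 (0.57 and -2.33) and Aldh1a1 (0.97 and -1.26) also had opposite signs, but were not past the threshold in the NSCs. The difference between the NSC and AST results was not tested, since the astrocytes have 1 library per genotype and come from another table. The sex of the cultured cells differs between those AST libraries, and so do their marker lists. Astrocyte markers summed to 585 CPM in WT-AST and 2050 CPM in S89G-AST, and meningeal fibroblast markers to 13414 and 4730 CPM. These differences and genotype cannot be told apart there.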

How the results depend on the processing

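No value of the 10 genes changed sign under any alternative run. Without 1 NSC library, the log2 fold change was 1.08 to 1.22 for Zic1, -1.07 to -0.77 for Aldh1a3, 0.39 to 0.97 for Foxc1 and 0.53 to 1.47 for Aldh1a1. By limma on log2(TPM + 1) it was 0.60 for Zic1, -1.15 for Aldh1a3, 0.24 for Foxc1 and 0.95 for Aldh1a1. NSC genes called numbered 792 higher and 981 lower, 348 and 503 by DESeq2, and 26 and 96 by limma on log2(TPM + 1); without 1 library they were 571 to 733 and 770 to 926. NSC calls by list were as follows. Retinoid pathway calls, 2 higher and 1 lower, were 1 and 1 by DESeq2, 0 and 0 by limma, 1 to 2 and 1 to 2 without 1 library, and 2 and 2 under the replicate block, which added Rxra. Meningeal transcription factor calls, 0 higher and 2 lower, were 1 higher with no filter, 1 lower by DESeq2, 0 lower by limma, and 0 to 2 and 1 to 2 without 1 library. Fibroblast marker calls, 2 and 2, were 0 and 1 by DESeq2, 0 and 0 by limma, 1 higher with no filter, and 0 to 2 and 2 without 1 library. The triplicate numbers did not pair the samples (correlations of the deviations 0.0289, -0.0088 and -0.0162 for equal numbers). In the astrocytes, genes at least 2-fold lower numbered 2010, and 1020 at log2(FPKM + 1). The retinoid median of -0.19 turned to 0.10 with library size alone and with both FPKM settings. That of the transcription factors, -1.59, was -1.30 with library size alone, -0.79 at log2(FPKM + 1) and -1.27 at log2(FPKM + 0.1). That of the fibroblast markers, -1.94, was -1.65, -1.60 and -1.65 under those settings and -1.53 with no filter. The median of all genes, 0.01, was 0.30 with library size alone, 0.29 at log2(FPKM + 0.1) and -0.03 with at least 50 counts. Of the other genes named as called in NSCs, DESeq2 called Dmp1, Dgat1, Rdh14, Ebf3, Aldh1l1 and Cemip and did not call Fabp5, Prrx1, Egr1, Pdgfra, Alpl, Bmp7, Mthfsd, Lrrk1 and Top2b. The cause of these shifts was not tested. NSC depth limits genes with few counts, and 4 of the 10 genes could not be counted there.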
